A study of Homo sapiens with 36 samples.

Results

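The respiratory chain and the ATP synthase of mitochondria are described here through 68 genes, of 11963 genes with a probe set of their own on the array. A gene was a member if its annotated symbol begins with NDUFA, NDUFB, NDUFC, NDUFS, NDUFV, UQCR, COX4, COX5, COX6, COX7, COX8 or ATP5, or is that of a succinate dehydrogenase subunit, with the NDUFAF assembly factors left out, and the brightest of its probe sets represented it. Of the 68 genes, 29 fell to complex I, 3 to complex II, 6 to complex III, 13 to complex IV and 17 to complex V, the ATP synthase. The choice by symbol brought in 4 genes that encode no subunit of these complexes: COX7A2L, which helps to assemble supercomplexes, ATP5IF1, the inhibitor of the ATP synthase, the pseudogene ATP5MC2P1 and the antisense transcript NDUFB2-AS1. The other 64 are subunit genes. NDUFB2 and NDUFB2-AS1 are overlapping genes. Signals of the members spanned a wide range: 64 of 68 lay in the upper part of all probe sets, above the median, whereas ATP5MC2P1, COX6A2, NDUFB2-AS1 and COX7A1 did not, so the values of these last 4 are weak.

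RNA was measured on 36 Affymetrix U133A 2.0 arrays in U2OS ER-HA-E2F1 cells, a derivative of the U2OS human osteosarcoma line made by retroviral infection and puromycin selection. All arrays, controls included, came from this line, in which E2F1 is fused to a hormone-binding part of the estrogen receptor and enters the nucleus when 4-hydroxytamoxifen (OHT) is added. Cells were transfected with 1 of 4 siRNAs, of which the negative controls came from Dharmacon and Sigma and those for NFYB from Ambion and Dharmacon, and were serum starved from 18 h after transfection for 24 h. They were collected then, without OHT (0 h), or after 4 h or 8 h in serum-free medium with 80 nM OHT, with 3 biological replicates of each of the 12 combinations of siRNA and time, so that each arm (control siRNAs or NFYB siRNAs) has 6 arrays at each time. NFYB is a subunit of the CCAAT-binding factor NF-Y. The design asks how these genes respond to E2F1, what NFYB knockdown does to them at each time, and whether the knockdown changes the response. Every 4 h and 8 h sample had OHT, so E2F1 activity cannot be told apart from OHT itself or from further starvation. An arm's 6 arrays at a time came from 2 siRNAs and were counted as separate replicates. P-values between arms therefore rest on the spread among arrays and do not treat siRNAs as the units.

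Mitochondria pass electrons from NADH and succinate through complexes I and II, ubiquinone, complex III, cytochrome c and complex IV to oxygen. Complexes I, III and IV pump protons as they do so, and the ATP synthase uses the returning protons to make ATP. A few subunits of the chain are encoded by mitochondrial DNA, whereas all genes described here are nuclear. Cultured tumour lines generally make ATP by this pathway and by glycolysis.

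The promoters of 4 members are shown because NF-Y binds the CCAAT box, and these 4 differ both in how many boxes they hold and in how their RNA moved. The RNA of ATP5MC1 rose most with NFYB siRNA at 8 h among the members called, NDUFC1 and COX6A1 also rose, and UQCRC2 was not called, while all 4 fell with OHT in control siRNA cells. Each line gives the 250 bases upstream of the annotated start, 5′ to 3′, from RefSeq (GRCh38.p14), with CCAAT or its reverse complement ATTGG in capitals.
ATP5MC1, chr17:48892537-48892786, plus strand: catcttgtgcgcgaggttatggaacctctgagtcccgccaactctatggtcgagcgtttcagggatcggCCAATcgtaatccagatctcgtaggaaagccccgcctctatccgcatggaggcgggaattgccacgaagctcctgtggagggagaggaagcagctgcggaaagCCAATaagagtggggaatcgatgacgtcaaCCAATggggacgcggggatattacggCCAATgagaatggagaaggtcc
COX6A1, chr12:120437863-120438112, plus strand: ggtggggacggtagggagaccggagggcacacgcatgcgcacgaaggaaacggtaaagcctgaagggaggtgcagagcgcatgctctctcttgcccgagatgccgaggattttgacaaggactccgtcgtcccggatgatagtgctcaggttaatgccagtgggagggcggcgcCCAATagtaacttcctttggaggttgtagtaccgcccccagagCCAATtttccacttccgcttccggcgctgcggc
NDUFC1, chr4:139302552-139302801, minus strand: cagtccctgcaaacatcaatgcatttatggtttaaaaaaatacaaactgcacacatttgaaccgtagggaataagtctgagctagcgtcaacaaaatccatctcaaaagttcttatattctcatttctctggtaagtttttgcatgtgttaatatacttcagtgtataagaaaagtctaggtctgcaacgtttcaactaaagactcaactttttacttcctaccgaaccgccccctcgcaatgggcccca
UQCRC2, chr16:21953111-21953360, plus strand: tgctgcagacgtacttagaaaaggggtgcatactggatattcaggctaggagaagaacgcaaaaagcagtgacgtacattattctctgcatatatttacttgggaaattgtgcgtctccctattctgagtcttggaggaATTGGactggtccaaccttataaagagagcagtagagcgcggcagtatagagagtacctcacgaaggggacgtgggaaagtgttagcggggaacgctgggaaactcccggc
ATP5MC1 held 4 of these boxes, COX6A1 held 2, UQCRC2 held 1 and NDUFC1 held none. Promoter entries matched 59 of the 68 members. On either strand of these 250 bases, CCAAT stood in 17 of 59 members (28.8%), against 35.6% of 9522 promoters of genes on the array and 33.1% of all 27168 promoters. Among members higher with NFYB siRNA at 8 h, 6 of 20 (30.0%) held it, and among the others 11 of 39 (28.2%). GCATGCG, a core of the site of NRF1, a regulator of nuclear genes for mitochondria, stood in 11 members (18.6%) against 4.75% of promoters of genes on the array. The ETS-type CCGGAAG was found in 14 (23.7% against 12.8%), the E2F-type TTTCGCG or TTTGGCG in 4 (6.78% against 3.85%) and the YY1-type AGATGGC in 1 (1.69% against 3.09%), all on both strands. TTTGGCG shares the letters TTGG with ATTGG. A match of letters is no measure of binding.

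Array-wide facts bear on these values. The knockdown was present: NFYB signals ran from 579 to 717 in control siRNA arrays at 8 h and from 74.1 to 187 in NFYB siRNA arrays, and at 0 h from 161 to 203 and from 53.9 to 81.7. Markers of the line's mesenchymal origin (VIM, SPARC, FN1, COL1A1, CDH2) were bright, while RUNX2, TWIST1 and COL1A2 were dim, and every leukocyte and endothelial marker measured lay below the median probe set. Of the epithelial markers EPCAM lay above it (signals 217 to 475) and the others below. Each array had been scaled by the authors to 1 trimmed mean (499.7 on all arrays), so a lower signal is a lower share of the RNA measured, and fewer cells with a transcript cannot be told apart from less of it per cell. The ACTB 3′/5′ signal ratio rises as RNA shortens. At 8 h it ran from 3.12 to 4.06 (median 3.70) in NFYB siRNA arrays. In control arrays it ran from 2.55 to 3.32 (median 2.90), with a small overlap. The GAPDH ratio at 8 h ran from 0.990 to 1.21 and from 1.05 to 1.14. At 0 h and 4 h the median ACTB ratio was 3.71 and 3.35 in NFYB siRNA arrays and 3.42 and 3.16 in control arrays. In control cells this median thus fell with time of OHT, with overlapping ranges.

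After 4 h and 8 h of OHT, most respiratory chain and ATP synthase genes fell. In control siRNA cells 57 of 68 members fell and none rose by 4 h, where 23.3% of all 22215 probe sets fell, and 56 fell and 1 rose by 8 h, where 29.6% of all fell and 20.3% rose (limma, adjusted p under 0.05 here and below). Among the 2185 probe sets at least as bright as the lower quartile of the members, 44.7% fell by 8 h. The members' median log2 difference was -0.36 at 4 h and -0.45 at 8 h, against -0.11 and -0.10 for all probe sets. For those of the members' brightness it was -0.12 and -0.16. In NFYB siRNA cells 43 fell and 1 rose (NDUFB2-AS1) by 4 h and 47 fell by 8 h, where 21.6% and 29.4% of all probe sets fell, with member medians of -0.25 and -0.30. Without overlap of their 6 arrays, 40 members lay lower at 8 h than at 0 h in control cells and 34 in NFYB siRNA cells, against 19.6% of all probe sets in either arm.

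**Figure D1:**
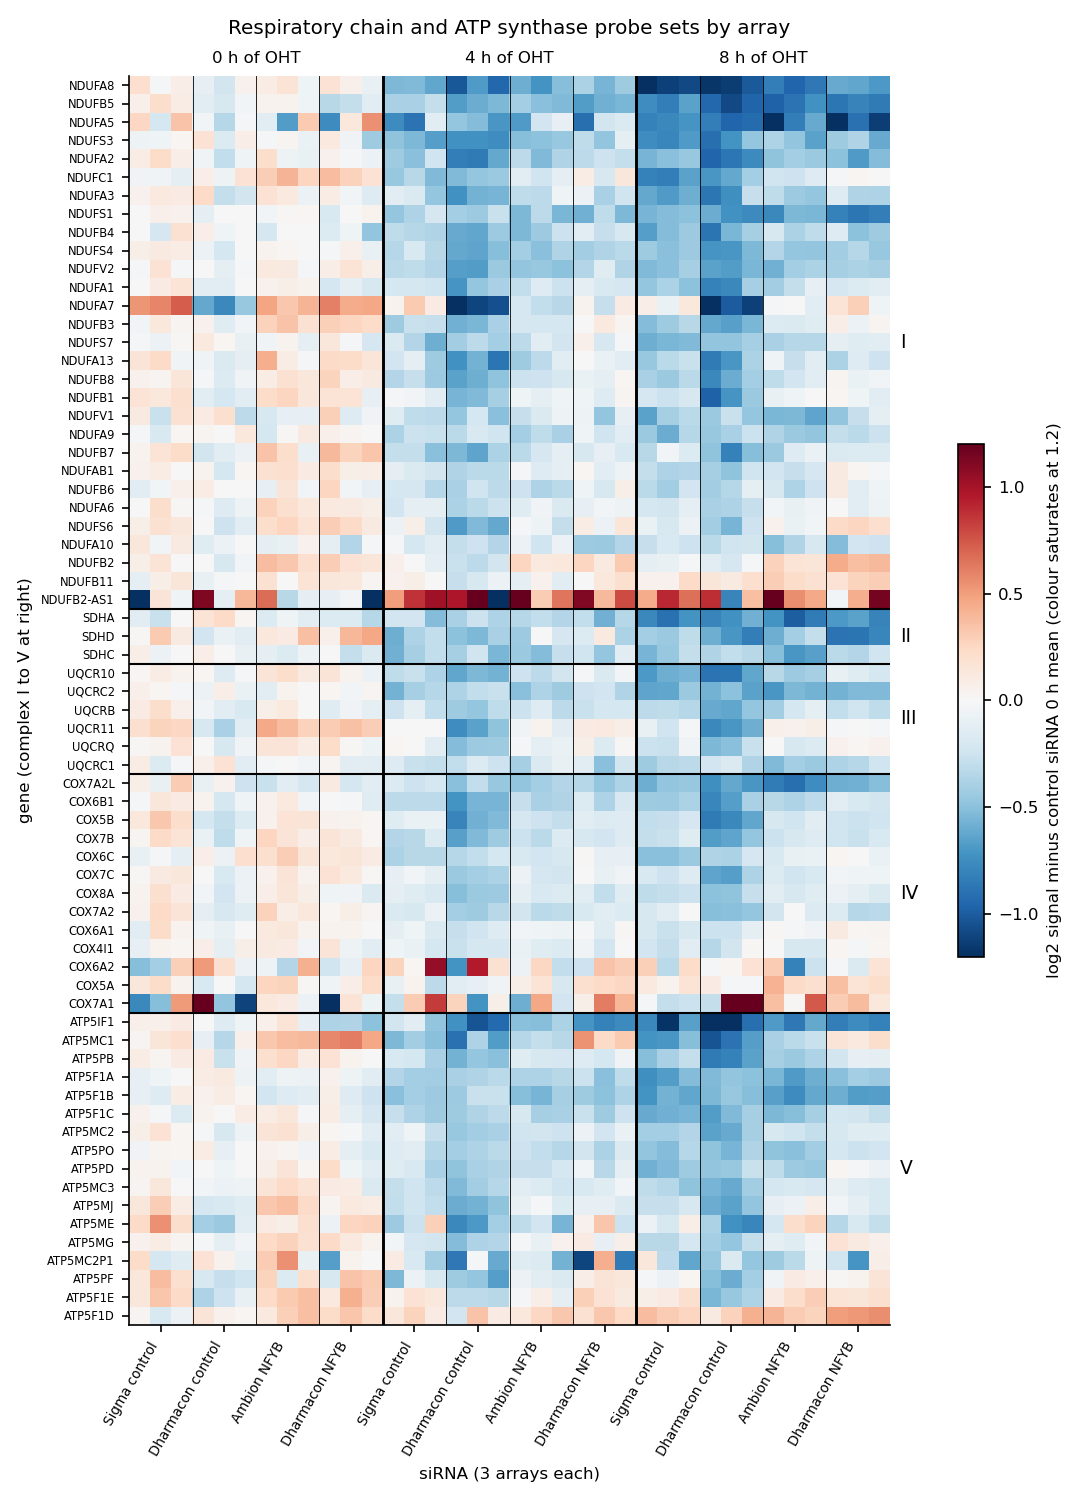
Log2 signal of each of the 68 members (rows, grouped by complex I to V and ordered within a complex by the 8 h response in control siRNA cells) on each of the 36 arrays (columns, 3 per siRNA and time), as the difference from the mean of the 6 control siRNA arrays at 0 h. Blue is lower and red is higher. Most rows turn blue at 4 h and 8 h, and at 8 h the Dharmacon control arrays have the lowest mean over the subunits. Rows for NDUFA7 and UQCR11 separate the control siRNAs at 0 h already.

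Complex I takes electrons from NADH, and its core subunits carry the flavin and the iron-sulfur clusters. All 5 core subunits measured, NDUFS1, NDUFS3, NDUFS7, NDUFV1 and NDUFV2, fell by 8 h in both arms, by log2 differences of -0.72 to -0.42 in control siRNA cells. Of 23 accessory subunits 20 fell in control cells and 15 in NFYB siRNA cells. NDUFA8, an accessory subunit on the side of the intermembrane space, had control signals of 1115 to 1499 (median 1322) at 0 h and 559 to 646 (median 597) at 8 h, a 2.18-fold decrease (log2 difference -1.12, SE 0.082, adjusted p = 1.72e-14). NDUFB5, of the membrane arm, had 3812 to 5062 (median 4402) at 0 h and 2058 to 2799 (median 2366) at 8 h (log2 difference -0.87, SE 0.079, adjusted p = 6.22e-12). In both genes every 8 h array lay below every 0 h array, and the 4 h arrays lay between, partly overlapping those of 8 h. NDUFB11, also of the membrane arm, is the brightest complex I member with no call for OHT or knockdown at 8 h: its control signals were 2950.2 to 3506 (median 3155) at 0 h and 3294 to 3723 (median 3465) at 8 h (log2 difference 0.13, SE 0.062, adjusted p = 0.0736), and the arrays of both times overlapped.

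Complex II oxidises succinate and is shared with the citric acid cycle. All 3 subunits measured fell in both arms by 8 h. SDHA, the flavoprotein that oxidises succinate, had control signals of 1272 to 1794 (median 1542) at 0 h and 823 to 1028 (median 909.5) at 8 h (log2 difference -0.75, SE 0.075, adjusted p = 7.09e-11) and SDHD, a membrane anchor, 2719.8 to 3964 (median 3109.7) at 0 h and 1793 to 2581 (median 2230.3) at 8 h (log2 difference -0.54, SE 0.11, adjusted p = 4.74e-05). For both genes the 6 arrays at 8 h lay below the 6 at 0 h. In NFYB siRNA cells SDHD went from 3319.6 to 4399 (median 3783) to 1720.5 to 2613 (median 1989) (log2 difference -0.89, SE 0.11, adjusted p = 6.06e-09).

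Complex III hands electrons from ubiquinol to cytochrome c, and all 6 of the members assigned to it by symbol fell in control siRNA cells. UQCRC2, a core protein facing the matrix, went from 2758 to 3074 (median 2913) at 0 h to 1857 to 2130.0 (median 1923) at 8 h (log2 difference -0.57, SE 0.055, adjusted p = 3.08e-11). In NFYB siRNA cells UQCRC2 fell too (log2 difference -0.56, SE 0.055, adjusted p = 4.87e-11). UQCR10, a small membrane subunit, had 5700.4 to 6764 (median 6445) at 0 h and 3428 to 4308 (median 4024) at 8 h (log2 difference -0.70, SE 0.074, adjusted p = 2.37e-10) and also fell with NFYB siRNA (log2 difference -0.37, SE 0.074, adjusted p = 6.96e-05). Both genes had every 8 h array under every 0 h array in each arm.

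Complex IV passes electrons to oxygen. Of 12 nuclear subunits, which surround the catalytic core encoded by mitochondrial DNA, 9 fell in control siRNA cells and 6 in NFYB siRNA cells. COX6B1, on the side of the intermembrane space, had 3305 to 4185 (median 3862) at 0 h and 2216 to 2940.2 (median 2829) at 8 h (log2 difference -0.51, SE 0.076, adjusted p = 3.35e-07). COX7A2L, the supercomplex factor, had 4253 to 6230.0 (median 4996) at 0 h and 3035 to 3690.4 (median 3336) at 8 h (log2 difference -0.59, SE 0.080, adjusted p = 5.22e-08). The times did not overlap for either. COX5A, a matrix-side subunit and the brightest complex IV member with no call, had 5997 to 8104 (median 7032) at 0 h and 6854 to 7769.7 (median 7296) at 8 h and log2 difference 0.07, SE 0.078, adjusted p = 0.526.

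In the ATP synthase, ATP5F1A and ATP5F1B form the catalytic head, and both fell. ATP5F1A had control signals of 8977 to 10361 (median 9456) at 0 h and 5771 to 6931 (median 6662) at 8 h (log2 difference -0.57, SE 0.056, adjusted p = 4.33e-11). ATP5F1B had 4202 to 4971 (median 4782) at 0 h and 2834 to 3395 (median 3170.3) at 8 h (log2 difference -0.57, SE 0.059, adjusted p = 1.23e-10). Neither gene overlapped between 0 h and 8 h in either arm. The 3 genes for the c ring, ATP5MC1, ATP5MC2 and ATP5MC3, fell by log2 differences of -0.75 to -0.45, and ATP5IF1, which blocks reverse ATP hydrolysis, fell 2.03-fold (log2 difference -1.02, SE 0.13, adjusted p = 1.88e-08). One gene rose: ATP5F1D, of the central stalk, went from 1019 to 1279.7 (median 1175) to 1243 to 1554 (median 1411) (log2 difference 0.29, SE 0.074, adjusted p = 0.00105), with overlap between 1 array of 8 h and the 0 h arrays, and in NFYB siRNA cells its difference was 0.17 (adjusted p = 0.0544). ATP5F1E, another central stalk subunit and the brightest of all members, had 10182 to 16555 (median 13383) at 0 h and 8958 to 15019 (median 11944) at 8 h (log2 difference -0.17, SE 0.12, adjusted p = 0.254), with wide overlap.

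Between NFYB and control siRNA most members were not called, and those called were higher with NFYB siRNA. At 0 h 5 members were higher and none lower, at 4 h 8 were higher and none lower, and at 8 h 22 were higher, none lower and 46 not called. The ACTB 3′/5′ ratio moved with the arm at 8 h, and with it as a covariate, chosen after seeing the data, 7 of the 22 were called, where 0.563% of all probe sets were higher. Of all probe sets 1.58%, 1.48% and 2.18% were higher at these times and 2.0%, 1.45% and 2.46% lower. Among the 2185 probe sets of the members' brightness 87, 89 and 175 were higher, the last being 8.01%. The medians over the members were 0.053, 0.17 and 0.23 on the log2 scale, against 0.00097, -0.0098 and -0.029 for all probe sets. For those of the members' brightness they were 0.023, 0.026 and 0.052. At 8 h 56 of 68 differences were above 0, and 40 had an unadjusted p under 0.05, as did 17.0% of all probe sets and 32.9% of those of the members' brightness. The 6 NFYB siRNA arrays lay above all 6 control arrays for 3, 7 and 18 members at the 3 times, against 1.05%, 0.99% and 1.63% of all probe sets. NDUFC1, NDUFB3, NDUFB2 and ATP5MC1 were called at all 3 times, ATP5F1D at 0 h alone.

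Among complex I genes 11 of 29 rose at 8 h, 10 of the 23 accessory subunits and 1 of the 5 core subunits, NDUFS7 (log2 difference 0.26, SE 0.072, adjusted p = 0.0283). NDUFC1, a small membrane-arm subunit, had signals of 2047 to 2747 (median 2279.6) in the control arrays and 3053 to 3694 (median 3431) in the NFYB siRNA arrays (1.47-fold, log2 difference 0.56, SE 0.072, adjusted p = 1.93e-06). NDUFB3, of the distal membrane arm, had 1169.8 to 1454 (median 1266) in the control arrays and 1632 to 1935 (median 1705) in the NFYB siRNA arrays (log2 difference 0.44, SE 0.068, adjusted p = 5.19e-05). NDUFB2, of the same arm, had 2851 to 3259 (median 3055) in the control arrays and 3634 to 4465 (median 4097) in the NFYB siRNA arrays (log2 difference 0.39, SE 0.068, adjusted p = 0.000228). The arms did not overlap at 8 h for any of these 3 genes. Of the 22 members, NDUFB2 was the 1 not called lower with OHT in control cells (log2 difference -0.10, SE 0.068, adjusted p = 0.259). Its control signals at 0 h were 2868 to 3680.4 (median 3279.8), and the highest of them overlapped the NFYB siRNA arrays at 8 h. The accessory subunits NDUFA8, NDUFA1 and NDUFB8 rose too (0.36, 0.33 and 0.37, adjusted p = 0.00585, 0.0136 and 0.00146). NDUFA2, of the matrix arm, had 1163 to 1643 (median 1425) in the control arrays and 1402 to 1692 (median 1604) in the NFYB siRNA arrays (log2 difference 0.18, SE 0.093, adjusted p = 0.342), and the groups overlapped. Its other probe set, with a mean signal of 67.6, was called higher (log2 difference 1.07, SE 0.20, adjusted p = 0.000851).

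**Figure D2:**
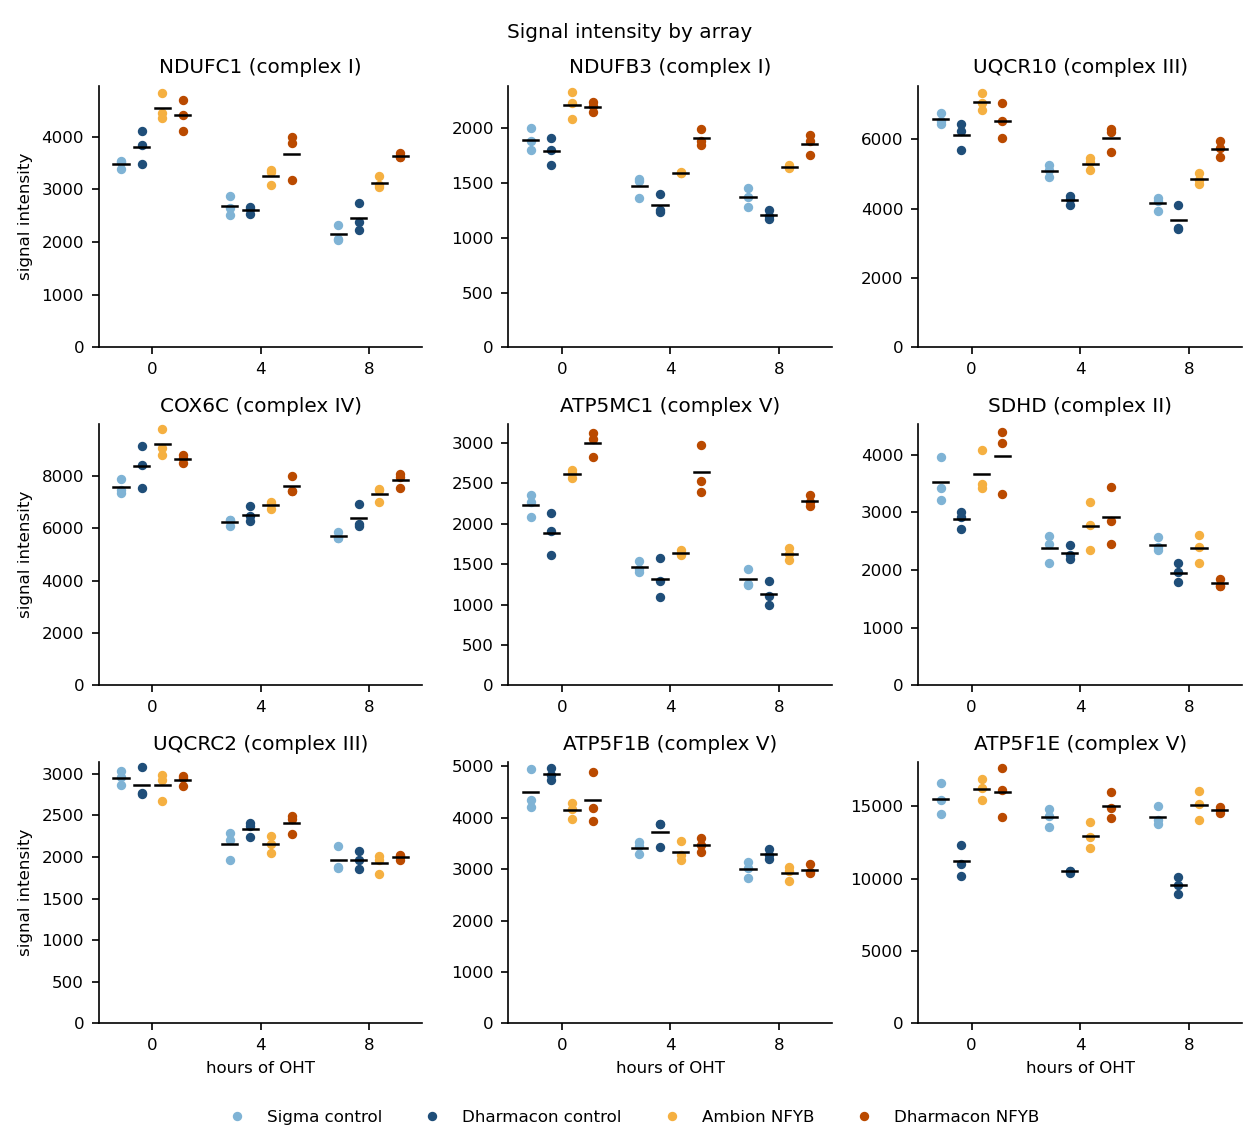
Signal intensity (vertical axis, linear and from 0) of 9 members against hours of OHT. Each point is 1 array, coloured by siRNA, and bars are means of 3 arrays. NDUFC1, NDUFB3, UQCR10, COX6C and ATP5MC1 have all NFYB siRNA points above all control points at 8 h, UQCRC2 and ATP5F1B fall with OHT in both arms, and ATP5F1E is lower with the Dharmacon control siRNA at each time.

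No complex II gene was called at 8 h, with log2 differences of -0.093 to -0.031. SDHD had 1793 to 2581 (median 2230.3) in the control arrays and 1720.5 to 2613 (median 1989) in the NFYB siRNA arrays (log2 difference -0.09, SE 0.11, adjusted p = 0.751) and SDHA 823 to 1028 (median 909.5) in the control arrays and 773 to 985 (median 904) in the NFYB siRNA arrays (log2 difference -0.03, SE 0.075, adjusted p = 0.903). The groups overlapped for both.

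Among the complex III members 2 of 6 rose at 8 h, both small membrane subunits. UQCR10 had 3428 to 4308 (median 4024) in the control arrays and 4702 to 5949 (median 5270.0) in the NFYB siRNA arrays (log2 difference 0.44, SE 0.074, adjusted p = 0.000208), with no overlap. UQCR11 had 1052 to 1777 (median 1366) in the control arrays and 1769 to 1897 (median 1829) in the NFYB siRNA arrays (log2 difference 0.42, SE 0.13, adjusted p = 0.0448). For UQCR11 the arms overlapped, 4 of 6 NFYB siRNA arrays exceeding the highest control array. The core proteins UQCRC1 and UQCRC2 were not called (-0.08 and 0.00019, adjusted p = 0.596 and 0.999). The other probe set of UQCRC2, with a mean signal of 1236, was called lower (log2 difference -0.47, SE 0.11, adjusted p = 0.00589), so this gene's probe sets disagree.

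Among complex IV genes 3 of 13 rose at 8 h. The core subunits of this complex, encoded by mitochondrial DNA, are not among the genes described here. COX6C had 5628 to 6923 (median 5975) in the control arrays and 7004 to 8076 (median 7517) in the NFYB siRNA arrays (log2 difference 0.33, SE 0.059, adjusted p = 0.000412). COX6A1 had 7617 to 8498 (median 7818) in the control arrays and 8912 to 9832 (median 9269.9) in the NFYB siRNA arrays (log2 difference 0.23, SE 0.054, adjusted p = 0.0072). COX6B1 had 2216 to 2940.2 (median 2829) in the control arrays and 2958 to 3470.3 (median 3169.8) in the NFYB siRNA arrays (log2 difference 0.25, SE 0.076, adjusted p = 0.0438). In all 3 the arms did not overlap, and the changes were 1.26-fold, 1.17-fold and 1.19-fold. COX5A also had all NFYB siRNA arrays above the control arrays, 6854 to 7769.7 (median 7296) in the control arrays and 7775 to 9287 (median 8087) in the NFYB siRNA arrays, yet did not pass the test (log2 difference 0.20, SE 0.078, adjusted p = 0.16).

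In the ATP synthase 6 of 17 members rose at 8 h: the 3 genes of the c ring, 2 of 3 small membrane subunits (ATP5MG and ATP5MJ) and 1 of 4 peripheral stalk genes (ATP5PB), with no call among the 5 genes of the F1 head and stalk by their brightest probe sets. Of these 5, ATP5F1C, of the central stalk, had 0.20 by its brightest probe set (adjusted p = 0.0828), while its other 2 bright probe sets were called higher (0.20 and 0.23, adjusted p = 0.0356 and 0.0328), so the absence of calls in F1 depends on the probe set. ATP5MC1, ATP5MC2 and ATP5MC3 encode the same mature ring protein with different import sequences. ATP5MC1 had 999 to 1438 (median 1252) in the control arrays and 1557 to 2361 (median 1962) in the NFYB siRNA arrays (1.59-fold, log2 difference 0.67, SE 0.13, adjusted p = 0.00129). ATP5MC3 had 4564 to 5619 (median 5074) in the control arrays and 5980.4 to 6529 (median 6118) in the NFYB siRNA arrays (log2 difference 0.28, SE 0.062, adjusted p = 0.00418). Its other probe set was not called (0.20, adjusted p = 0.218). ATP5MG, at the interface of synthase dimers, had 5523 to 6574 (median 6057) in the control arrays and 6902 to 8623 (median 7715) in the NFYB siRNA arrays (log2 difference 0.35, SE 0.067, adjusted p = 0.000986). No array of either arm crossed into the other for these 3 genes. ATP5MC1 was already apart at 0 h, 1612 to 2355 (median 2109.6) against 2562 to 3128 (median 2745) (log2 difference 0.46, SE 0.13, adjusted p = 0.0411). The catalytic ATP5F1A and ATP5F1B had 0.05 and -0.09 (95% intervals -0.07 to 0.16 and -0.21 to 0.03, adjusted p = 0.772 and 0.495). The grouping into core and accessory parts was made with these values known and was not tested.

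The count of 22 at 8 h also moved with the samples and the test. The 7 called with the ACTB ratio as a covariate were NDUFC1, NDUFB3, UQCR10, NDUFB2, COX6C, ATP5MC1 and NDUFB8. The count was 13 without replicate 1 or without replicate 2 of the Dharmacon control siRNA at 8 h, and 9 by the unequal-variance test of the methods, which on log2 signal called 0.981% of all probe sets higher.

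**Figure D3:**
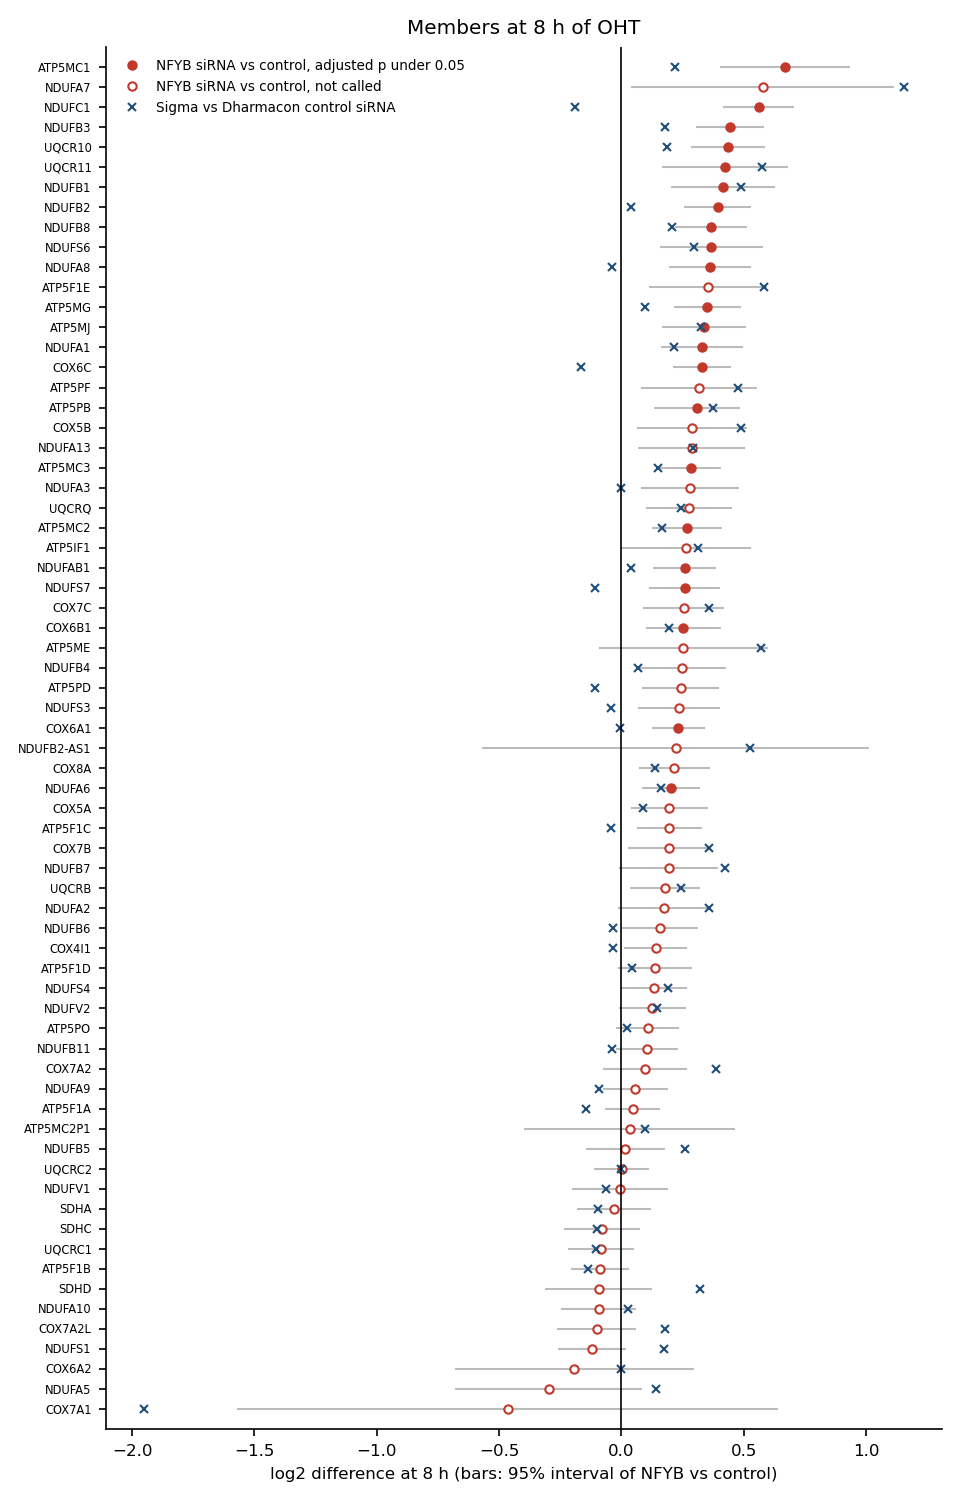
Log2 difference at 8 h of OHT for each of the 68 members, NFYB siRNA minus control siRNA (red circles, filled where called, with 95% intervals), and Sigma minus Dharmacon control siRNA (blue crosses), ordered by the former. For NDUFA7, UQCR11 and ATP5F1E the cross lies to the right of the circle, and for NDUFC1 and COX6C it lies below 0.

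Whether NFYB knockdown changes the response to OHT was tested as the difference of the responses. No member was called at 4 h or at 8 h, where 0.009% and 0.171% of all probe sets were called higher and 0.0045% and 0.0315% lower. At an unadjusted p under 0.05 there were 3 members at 4 h and 16 at 8 h, against 4.88% and 7.08% of all probe sets, so that the 3 at 4 h were near the background share. At 8 h 58 of 68 differences were above 0, that is a smaller decrease with NFYB siRNA. Their median was 0.14 (0.078 at 4 h). At 8 h it was -0.021 for all probe sets and 0.027 for those of the members' brightness. NDUFA1 had the smallest p: its control signals were 2892 to 3563 (median 3175) at 0 h and 1814 to 2449 (median 2287) at 8 h, its NFYB siRNA signals 2745 to 3340.1 (median 3115) and 2372 to 2958 (median 2799), and the decrease was smaller by 0.39 (SE 0.12, adjusted p = 0.283). UQCR10 had a difference of 0.34 (SE 0.11, adjusted p = 0.336) and NDUFC1 of 0.26 (SE 0.10, adjusted p = 0.53). SDHD went the other way (-0.35, SE 0.15, adjusted p = 0.621). With the 12 siRNA and time groups fitted apart, 3 members were called at 8 h, and 1.31% of all probe sets.

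The 2 control siRNAs differed from each other in these genes. With the Dharmacon control 15 members were lower and 1 (SDHA) higher than with the Sigma control at 0 h, 29 lower at 4 h and 19 lower at 8 h, none higher at the later times. Of all probe sets 7.06%, 7.79% and 7.04% were lower and 6.86%, 5.57% and 5.48% higher. Among the 2185 probe sets of the members' brightness 269, 304 and 263 were lower and 308, 273 and 318 higher. Among members called, NDUFA7, a matrix-arm subunit of complex I, differed most: the 3 arrays at 8 h had 201, 216 and 234 with the Dharmacon control and 443, 494 and 512 with the Sigma control, a 2.23-fold difference (log2 difference -1.15, SE 0.11, adjusted p = 3.08e-09). At 0 h it had 274, 305 and 342 and 677, 700.3 and 773. UQCR11 at 8 h had 1052, 1109.7 and 1201 against 1531, 1695 and 1777 (log2 difference -0.57, SE 0.070, adjusted p = 4.66e-07). The arrays of the 2 controls did not overlap in these genes. ATP5F1E (-0.58), COX5B (-0.49), NDUFB1 (-0.49) and COX7A2 (-0.39) were also lower with the Dharmacon control at 8 h. NDUFC1 was not, with 2238, 2375 and 2747 against 2047, 2066 and 2321 (log2 difference 0.19, SE 0.081, adjusted p = 0.131).

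The 22 members higher at 8 h were then set against each control siRNA alone. They were chosen on these same arrays, so their recurrence here was partly fixed in advance. With the Dharmacon control alone 37 members were higher, among them 21 of the 22, where 4.59% of all probe sets were higher. With the Sigma control alone 12 were higher, all among the 22, where 2.71% of all probe sets were: NDUFC1, NDUFB3, UQCR10, NDUFB2, COX6C, ATP5MG, ATP5MC1, NDUFB8, NDUFA8, COX6A1, NDUFAB1 and NDUFS7. Of the 22, 5 were themselves lower with the Dharmacon than with the Sigma control at 8 h (ATP5MJ, NDUFB1, ATP5PB, NDUFS6 and UQCR11), and none of these 5 was higher against the Sigma control alone.

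**Figure D4:**
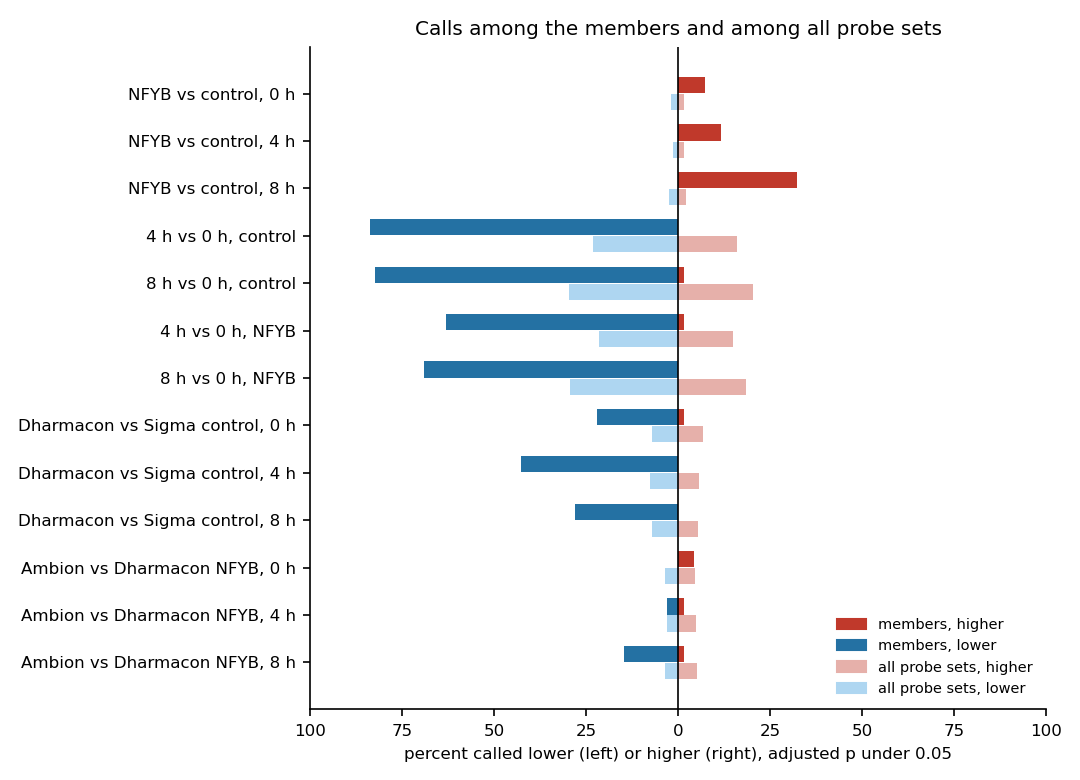
Percent of the 68 members (dark bars) and of all 22215 probe sets (pale bars) called higher (right) or lower (left) in 13 comparisons named on the vertical axis. With NFYB siRNA at 8 h 32.4% of members were higher against 2.18% of probe sets, and 42.6% of members were lower with the Dharmacon than with the Sigma control siRNA at 4 h against 7.79%. Among the 2185 probe sets of the members' brightness, 175 were higher in the former comparison and 304 lower in the latter.

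The 2 siRNAs against NFYB were also taken apart. Fitted with the 12 groups apart and set against the pooled controls at 8 h, the Ambion siRNA left 26 members higher and 1 (COX7A2L) lower, and the Dharmacon siRNA 35 higher and 2 (NDUFS1 and SDHD) lower, where 3.69% and 7.2% of all probe sets were higher and 3.71% and 8.79% lower. Among the 2185 probe sets of the members' brightness, 245 and 643 were higher with these siRNAs and 140 and 267 lower. Of the 22 members higher with both siRNAs pooled, 18 were higher with each. Both comparisons share the same control arrays, and the 22 were chosen on these same arrays, so the calls are not independent. In the fit by arm and time, fewer members were called with the Ambion siRNA alone, as given at the end. Directly compared, 3 members were higher with Ambion than with Dharmacon NFYB siRNA at 0 h, where 4.58% of all probe sets were, 1 was higher and 2 lower at 4 h (4.77% and 3.17%), and 1 was higher and 10 lower at 8 h (5.05% and 3.67%). Among the 2185 probe sets of the members' brightness 173 were higher and 328 lower at 8 h, with a median of -0.071. The members' median was -0.073, so their 10 lower calls (14.7%) were near that share. ATP5MC1 at 8 h had 1557, 1631 and 1701 with the Ambion and 2223, 2270.2 and 2361 with the Dharmacon siRNA (log2 difference -0.49, SE 0.10, adjusted p = 0.00201). SDHD had 2125, 2399 and 2613 and 1720.5, 1732 and 1853 (log2 difference 0.42, SE 0.12, adjusted p = 0.0188) and was the member higher with the Ambion siRNA. The arrays of the 2 siRNAs did not overlap for either gene. Of the 10 members lower with the Ambion siRNA, 6 belong to the ATP synthase.

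Where a gene had several probe sets, the others were read as a check. For 21 members 33 other probe sets named the gene alone: 8 were called higher and 1 lower with NFYB siRNA at 8 h, and 20 lower and 1 higher at 8 h of OHT in control siRNA cells. None was called opposite to a called member. For ATP5MG the 2 other bright probe sets had 0.37 and 0.38 with NFYB siRNA at 8 h (adjusted p = 0.000201 and 0.000166), beside 0.35 for the brightest. NDUFB8 and ATP5MJ were also called higher by another probe set (0.44 and 0.41). Other probe sets of the called members ATP5MC3, NDUFA6 and NDUFB2 were not called (0.20, 0.11 and 0.30, adjusted p = 0.218, 0.629 and 0.0675). Their mean signals were 5628, 893 and 1160. Other probe sets were called with NFYB siRNA at 8 h where the brightest was not for ATP5F1C, NDUFA2 and UQCRC2, given above, and for COX7C. For COX7C a dimmer probe set was called at 0.78 (adjusted p = 0.0162), whereas the brightest was not (log2 difference 0.25, SE 0.081, adjusted p = 0.0645).

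Genes around the chain, taken from 4 lists by function, were read in the same fit. Of 23 assembly factors measured 13 fell and 6 rose by 8 h in control siRNA cells, of 13 genes for cytochrome c, carriers and channels 7 fell and 2 rose, of 15 citric acid cycle genes 11 fell and 1 rose, and of 19 regulators of mitochondrial biogenesis 12 fell and 4 rose, with medians of -0.54, -0.28, -0.49 and -0.54. With NFYB siRNA at 8 h 2, 1, 2 and 1 of these rose, and 1 biogenesis gene, GABPB1, a subunit of an ETS-family regulator, fell (log2 difference -0.29, adjusted p = 0.0157), with list medians of 0.099, 0.047, 0.063 and -0.011. The others that rose were the assembly factors TMEM70 and TMEM126B (0.27 and 0.38, adjusted p = 0.0328 and 0.0341) and IDH3G, of isocitrate dehydrogenase (0.39, adjusted p = 0.00461), beside the 3 genes that follow. By limma no gene of the 4 lists was called for the difference of responses. CYCS, cytochrome c itself, rose with NFYB siRNA (log2 difference 0.55, SE 0.11, adjusted p = 0.00129) and fell with OHT (-0.33, adjusted p = 0.00922). TFAM, which packages and transcribes mitochondrial DNA, rose with NFYB siRNA (0.62, SE 0.15, adjusted p = 0.0114) and fell with OHT (-0.54, adjusted p = 0.00252). PDHB, a subunit of pyruvate dehydrogenase, rose by 0.42 with NFYB siRNA (adjusted p = 0.0141) and fell by 1.76 with OHT (adjusted p = 4.51e-17). These knockdown values are those of 8 h. CYCS and TFAM were already higher with NFYB siRNA at 0 h (0.53 and 0.67, adjusted p = 0.00181 and 0.0056). PDHB was not (-0.040, adjusted p = 0.916). Against the members' direction, TMEM70, an ATP synthase assembly factor, rose with OHT (1.60, adjusted p = 4.69e-20), as did SCO2, which delivers copper to complex IV (1.25, adjusted p = 8.16e-19).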

How the data were processed

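The deposited values were signal intensities on a linear scale, 1 per probe set and array, which the authors made with the MAS5 algorithm in Affymetrix Expression Console and scaled to a common trimmed mean. Depth has no counterpart on arrays, and the number of arrays limits the precision. The 36 arrays were grouped by the labels' siRNA and time, and no column was left unused.

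Intensities were taken to log2 with no offset and fitted with limma 3.58.1 in R 4.3.3 (lmFit, eBayes with a variance trend) over 6 groups of arm and time, or over 12 groups of siRNA and time where siRNAs were compared. P-values were two-sided and adjusted by Benjamini-Hochberg over 22215 probe sets, with calls at 0.05. The steps were tested on simulated data. Probe sets that name several genes (9 with a symbol that begins like those of the members) were not used.

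The members and lists were chosen with earlier results of these data known. Members given by array were NDUFC1, NDUFA2, up to 3 per complex by smallest adjusted p for knockdown at 8 h, up to 2 for the response to OHT at 8 h, up to 2 for the difference of responses, and the brightest without a call. NDUFA7, NDUFA1 and ATP5F1D, the promoters shown, the groups by role and the other probe sets named were picked after their values were seen. Promoters came from RefSeq (GRCh38.p14).

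The alternatives changed the offset (16 added before log2), the normalization (quantile), the filter (only the brightest 60% of probe sets), the variance model (no trend), the groups fitted, the test (the unequal-variance test of the methods) and the blocks (siRNA at random, or replicate number). Others used a single siRNA of an arm, the mean over a gene's probe sets, or left out arrays or replicate numbers. Updated RefSeq symbols added 0 probe sets to the members, so that alternative had no values of its own. The ACTB covariate was added after the data were seen.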

Additional observations from a re-analysis of the deposited data

Results flagged for a closer look

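Of 174 sets of 6 arrays, 8 held an array far from the rest, and chance gives about 1 in 20. Mean values over subunits (log2, relative to control siRNA at 0 h) were of this kind. Complex II with NFYB siRNA at 0 h had 0.058 in Ambion replicate 3, the next being -0.015. Complex II with control siRNA at 8 h had -0.43 in Sigma replicate 3, the next being -0.58. Complex IV with NFYB siRNA at 8 h had -0.036 in Dharmacon replicate 1, the next being -0.099. Complex V with NFYB siRNA at 0 h had 0.034 in Dharmacon replicate 3, the next being 0.12. The other sets were signals of single genes with NFYB siRNA. SDHA at 4 h had 1026 in Dharmacon replicate 2, below the next at 1198. UQCRC2 at 8 h had 1796 in Ambion replicate 1, below 1964. COX7A2L at 0 h had 5466 in Dharmacon replicate 1, above 4617. ATP5MC3 at 0 h had 6164 in Dharmacon replicate 3, below 7391.

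The NFYB siRNAs differed in some members by limma (log2, Ambion minus Dharmacon). Of all probe sets 4.58%, 4.77% and 5.05% were higher at 0, 4 and 8 h, and 3.7%, 3.17% and 3.67% lower. The members' counts at 0 h and 4 h were near or below these shares. Their 10 lower calls at 8 h were near the share of equally bright probe sets (328 of 2185). At 0 h the differences were 0.45 for ATP5IF1, 0.22 for ATP5MJ and 0.26 for NDUFB5. At 4 h they were -0.68 for ATP5MC1, 0.28 for NDUFA10 and -0.26 for NDUFB3. At 8 h they were -0.25 for ATP5F1C, -0.49 for ATP5MC1, -0.22 for ATP5MG, -0.26 for ATP5PB, -0.38 for ATP5PD, -0.23 for ATP5PO, -0.27 for COX7A2L, -0.27 for NDUFAB1, -0.32 for SDHC, 0.42 for SDHD and -0.24 for UQCR10.

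In all, 9 probe sets name several genes, among them a symbol that begins like those of the members. These symbols are not among the 68 members, and some are readthrough names. Of the 9, 4 were higher with NFYB siRNA at 8 h, where 2.18% of all probe sets were. At 8 h of OHT in control siRNA cells 8 were lower, where 29.6% of all probe sets were.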

How the results depend on the processing

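Counts of members called moved most for the knockdown. At 0 h, 5 members were higher: 3 without a variance trend, with only the groups compared, with siRNA as a random block, by the unequal-variance test on linear signal, with the ACTB covariate or with the Sigma control alone, 2 by the unequal-variance test on log2 or with a single NFYB siRNA, 15 with 12 groups and 17 with the Dharmacon control alone. At 4 h the 8 became 5 with only the groups compared, 31 with 12 groups, 0 by the unequal-variance tests, 2 with the Ambion siRNA or the Sigma control alone and 32 with the Dharmacon control alone. At 8 h the 22 became 41 with 12 groups, 9 by either unequal-variance test, 7 with the ACTB covariate or the Ambion siRNA alone, 37 with the Dharmacon control alone and 12 with the Sigma control alone. With the Dharmacon NFYB siRNA alone, 13 in place of 43 fell at 4 h and 23 in place of 47 at 8 h, and 1 was called for the difference of responses at 8 h, against 3 with 12 groups. Quantile normalization gave 7 differences between NFYB siRNAs at 8 h in place of 11. NDUFA2 with NFYB siRNA (-0.0035) and COX5A with OHT (-0.023) turned sign with the Sigma control alone, neither being called. The causes were not tested.

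Without 1 replicate number, the knockdown counts were 0 to 1, 0 to 3 and 4 to 9 at 0, 4 and 8 h, the response counts 46 to 51 and 53 to 54 in control cells and 23 to 34 and 39 to 42 in NFYB siRNA cells, the difference counts 0, the control siRNA counts 5 to 12, 10 to 25 and 7 to 17, and the NFYB siRNA counts 0 to 3, 1 to 2 and 1 to 4. Without 1 array, they were 1 to 5, 6 to 12 and 13 to 25, then 52 to 60, 55 to 59, 37 to 46 and 44 to 50, and 0. The 1 at 0 h came without Dharmacon control replicate 2, and the 13 at 8 h without Dharmacon control replicate 1 or 2.

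Replicate numbers were not treated as pairs in the main fit. Deviations of same-numbered arrays had a median correlation of 0.0089, and 29 of 198 pairs exceeded 0.1. For arrays with other numbers the median was -0.0031, and 39 of 396 pairs exceeded 0.1. Of the 36 arrays 16 were closest to those of their own number. With the replicate block the knockdown counts were 5, 8 and 20, the responses 56, 56, 41 and 47, the differences 0, and the siRNA comparisons 16, 29 and 21 and 3, 3 and 11. Of the values of single genes, 1439 kept direction and side of the threshold, 61 lost the call, 12 gained it and 2 turned.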
